A study of Mus musculus with 9 samples.

Results

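The 10 genes described here carry out antigen presentation by class I molecules of the major histocompatibility complex (MHC). They were chosen by name, as every row of the count table whose symbol was H2-K1, H2-D1, B2m, Tap1, Tap2, Tapbp, Psmb8, Psmb9, Nlrc5 or Erap1. All 10 were found among the 46078 genes of the table, 1 row each. The lymphoma group held 6 libraries (numbered 34, 53, 56, 70, 72 and 86) of T cell lymphoma cells induced by MYCN, a transcription factor of the MYC family, and taken from the thymus. The CD4 group held 3 libraries (1, 2 and 3) of CD4+ T cells from the spleen. Both groups are labelled as the C57BL/6J strain, and RNA was read by sequencing of transcript 3′ ends. The labels used here give no promoter or carrier line for MYCN, no age and no statement of whether a library is 1 animal or a pool, so p-values measure the spread between these libraries, which may be partly technical.

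Class I molecules display short peptides from inside the cell to CD8 T cells. Peptides are cut by the proteasome, whose inducible subunits Psmb8 and Psmb9 replace constitutive ones, and are pumped into the endoplasmic reticulum by the Tap1 and Tap2 transporter. There they are trimmed by Erap1 and loaded, with the help of Tapbp (tapasin), onto a heavy chain such as H2-K1 or H2-D1 paired with the light chain B2m. Nlrc5 is a nuclear activator that binds class I promoters together with RFX, CREB and NF-Y proteins, and interferons induce most of these genes, in part through Irf1. Per GENCODE M21 on GRCm38, 7 of the 10 members lie in the MHC on chromosome 17, between 33915899 and 35267499. The others are B2m on chromosome 2 (122147686 to 122153083), Nlrc5 on chromosome 8 (94434356 to 94527272) and Erap1 on chromosome 13 (74639568 to 74693201).

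Gene counts ranged from 11170704 to 15769679 per library in lymphoma and from 8099960 to 10808828 in CD4, and lymphoma 53 stood apart from the other 8 libraries on the second principal component. The labelled cell types were checked against marker lists. Of 11 T cell markers, led by Thy1, Lck and Cd3d, none was at 0 in all libraries of a group, but Cd4 was at 6.04 to 71.9 CPM (counts per 1000000 scaled counts) in lymphoma and 199 to 263 CPM in CD4. Cd8b1 had 0 counts in lymphomas 34 and 56 and Cd8a 1 count in each. In lymphoma 53 Cd8a and Cd8b1 were at 29.4 and 47.6 CPM, near the CD4 libraries (25.6 to 31.8 and 35.9 to 44.9 CPM), and in the other 5 lymphomas at most at 1.53 and 0.735 CPM. All 12 B cell markers had their lowest CD4 value above their highest lymphoma value. Their summed level was 2352 to 2948 CPM in CD4 and 256 to 422 CPM in lymphoma, with Ighm, Cr2 and Ms4a1 the most abundant. Dendritic cell markers summed to 170 to 212 CPM in CD4 and 13.5 to 27.6 CPM in lymphoma. Natural killer cell markers, led by Gzma, summed to 139 to 159 CPM in CD4 and 316 to 803 CPM in lymphoma, but this sum is mostly Gzma (298 to 785 CPM in lymphoma). Of the 6 natural killer cell markers, 4 were higher in every CD4 library (Ncr1, Klre1, Klra8 and Eomes) and 1, Gzma, in every lymphoma, and Ncr1 was at 0 in all 6 lymphomas. Myeloid, erythroid and stromal sums are shown by library in the plot of marker sums, where the first 2 of these overlapped between the groups. The stromal sum was 219 to 241 CPM in CD4 and 100 to 188 CPM in lymphoma. Of the 14 stromal markers, 2 were higher in every CD4 library and 4 in every lymphoma. Among them, Cdh5 was at 0 in all 6 lymphomas and Dcn, Foxn1, Krt5 and Krt8 at 0 in all 3 CD4 libraries. B cells and dendritic cells carry high class I levels as a matter of background, and the part of these cells in the results was not tested. In such bulk samples fewer cells of a type and less RNA per cell cannot be told apart, and tissue of origin and group coincide.

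**Figure D1:**
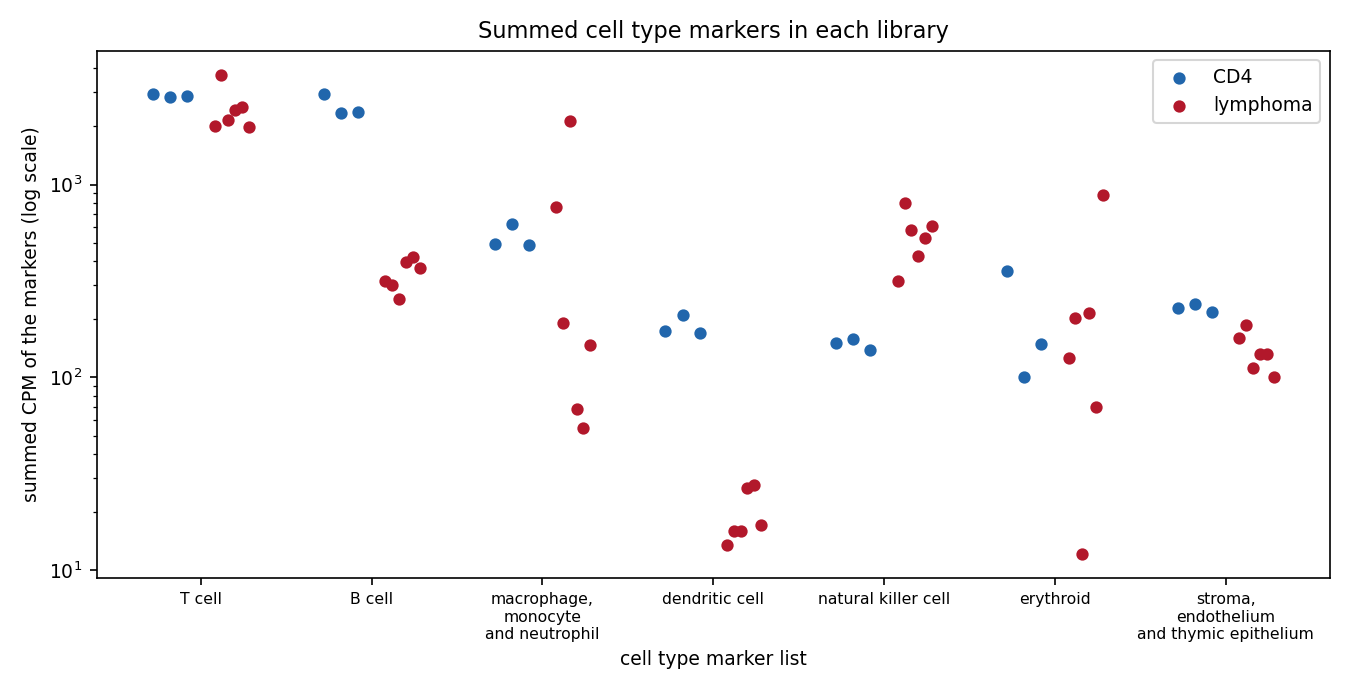
Summed CPM of each cell type marker list (log axis) in the 3 CD4 libraries (blue) and the 6 lymphomas (red), 1 point per library. The B cell sum was 2352 to 2948 CPM in CD4 and at most 422 CPM in lymphoma.

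As a sum, the 10 members took up less of the RNA in lymphoma. Their summed counts were 0.949, 0.950 and 1.01% of all gene counts in the CD4 libraries and 0.385 to 0.570% in the lymphomas, a share that needs no scaling between libraries. In CD4 this sum is mostly B2m (3665 to 4009 CPM), H2-K1 (2464 to 3163 CPM) and H2-D1 (1376 to 1707 CPM). The next member there was Psmb8, at 407 to 454 CPM, so the sum does not speak for each member. All 10 members passed the filter on low counts. By edgeR's quasi-likelihood test, adjusted over 15401 genes with 0.05 as threshold, 7 members were lower in lymphoma (H2-K1, H2-D1, Tapbp, Nlrc5, B2m, Tap1 and Psmb9) and 2 were higher (Psmb8 and Erap1). The background is high in this comparison: 46.6% of all tested genes were called, 21.9% as lower and 24.7% as higher. The median log2 fold change of the members was -0.86, against 0.04 over all tested genes. The groups did not overlap at 7 members, the exceptions being Tap2, Nlrc5 and Erap1, and they did not overlap at 44.9% of all tested genes. At 6 of those 7 members all lymphomas were the lower group, against 22.3% of all tested genes.

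**Figure D2:**
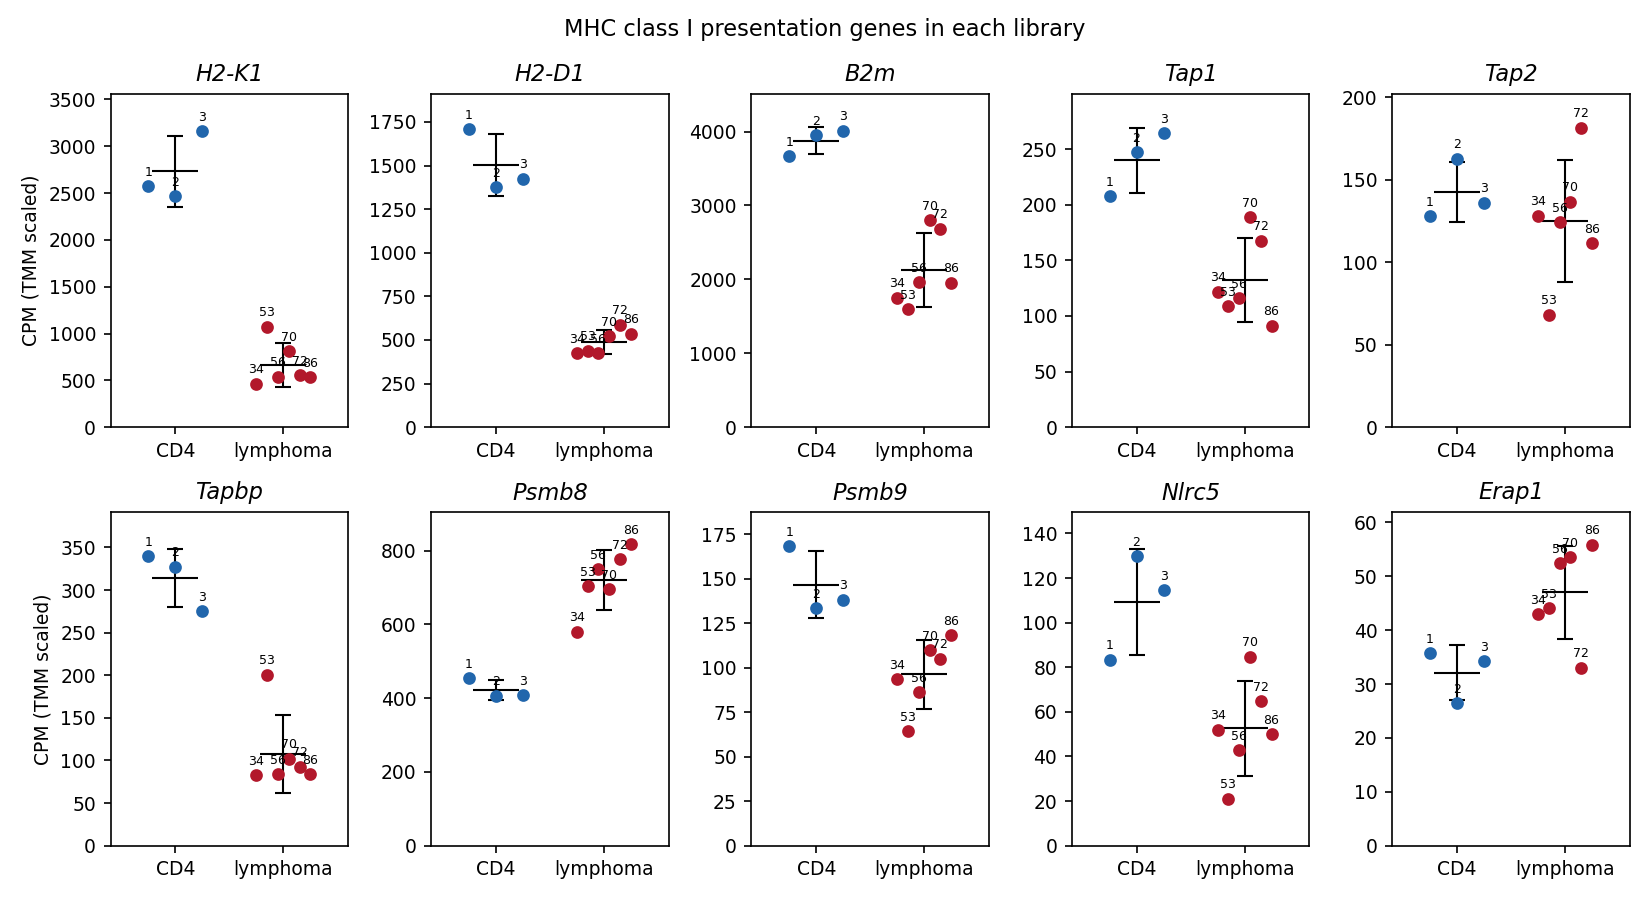
CPM of each member in every library, 1 panel per gene, with CD4 in blue and lymphoma in red, library numbers beside the points, and the mean with its SD as a bar. H2-K1 lay at 466 to 1071 CPM in lymphoma and at 2464 to 3163 CPM in CD4, while Psmb8 was higher in all 6 lymphomas.

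In the fit of all 9 libraries the 2 classical heavy chains had the lowest fold changes of the members. The order of H2-D1 and Tapbp rests on lymphoma 53. Without it the log2 fold change of Tapbp was -1.83, below the -1.72 to -1.50 of H2-D1 over 17 alternative fits. H2-K1 (ENSMUSG00000061232, chromosome 17, 33996017 to 34000347, minus strand), which encodes a classical heavy chain, was at 2571, 2464 and 3163 CPM in CD4 1, 2 and 3. In the lymphomas its lowest value was 466 CPM, its median 548 CPM and its highest 1071 CPM. Every lymphoma was below every CD4 library, and lymphoma 53 was the highest of its group. The log2 fold change was -2.04 (SE 0.242), or 4.12-fold lower in lymphoma, at an adjusted p (edgeR) of 3.94e-05. H2-D1 (ENSMUSG00000073411, chromosome 17, 35262730 to 35267499), the other classical heavy chain of the table, was at 1707, 1376 and 1424 CPM in CD4. Its lymphoma values had a lowest of 423 CPM, a median of 480.5 CPM and a highest of 588 CPM. The 6 lymphomas were close to each other, with a coefficient of variation of 14.3% against 35% for H2-K1, and again none reached a CD4 library. The log2 fold change of H2-D1 was -1.62 (SE 0.15) at an adjusted p (edgeR) of 6.89e-06.

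The light chain had a smaller fold change. B2m (ENSMUSG00000060802) was at 3665, 3949 and 4009 CPM in CD4 and had a lowest value of 1598 CPM, a median of 1959 CPM and a highest of 2799 CPM in lymphoma. Lymphomas 70 and 72 were the upper pair at 2799 and 2689 CPM, and all 6 were below CD4. Its log2 fold change was -0.87 (SE 0.187), or 1.82-fold lower, at an adjusted p (edgeR) of 0.00253.

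Promoter sequences from RefSeq (GRCm38.p6), covering 250 bases before and 50 after the transcript start, were found for 8 of the 10 members, all but Tap2 and Nlrc5. They are shown for both heavy chains and the light chain, which fell together, for Tap1, whose window overlaps that of Psmb9, and for Psmb8, which rose. The windows are chr17:34000298-34000597 on the minus strand for H2-K1 (the first of its 2 listed starts), chr17:35262844-35263143 for H2-D1, chr2:122147437-122147736 for B2m, chr17:34187306-34187605 for Tap1 and chr17:34197945-34198244 for Psmb8, all on the plus strand except H2-K1. Capitals mark matches on either strand to the motifs searched, which were the core of the interferon-stimulated response element (2 GAAA repeats with 2 free bases between them), ATTGG (inverted CCAAT, the Y box), TGACG (part of the cyclic AMP response element, in the X2 box), GGGNNTTCC (NF-kB-like) and the E box CACGTG.
H2-K1: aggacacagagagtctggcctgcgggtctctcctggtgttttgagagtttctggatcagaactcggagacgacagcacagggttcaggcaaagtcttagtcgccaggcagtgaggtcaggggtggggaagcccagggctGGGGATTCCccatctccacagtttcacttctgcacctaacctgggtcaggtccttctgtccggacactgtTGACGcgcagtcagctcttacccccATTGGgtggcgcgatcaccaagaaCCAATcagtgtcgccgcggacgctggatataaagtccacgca
H2-D1: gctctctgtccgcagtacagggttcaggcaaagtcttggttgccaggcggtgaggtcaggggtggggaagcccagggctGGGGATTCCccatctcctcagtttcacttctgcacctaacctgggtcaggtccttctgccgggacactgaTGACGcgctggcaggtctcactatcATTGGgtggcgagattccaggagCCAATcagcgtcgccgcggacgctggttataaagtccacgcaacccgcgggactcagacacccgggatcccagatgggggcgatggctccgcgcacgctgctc
B2m: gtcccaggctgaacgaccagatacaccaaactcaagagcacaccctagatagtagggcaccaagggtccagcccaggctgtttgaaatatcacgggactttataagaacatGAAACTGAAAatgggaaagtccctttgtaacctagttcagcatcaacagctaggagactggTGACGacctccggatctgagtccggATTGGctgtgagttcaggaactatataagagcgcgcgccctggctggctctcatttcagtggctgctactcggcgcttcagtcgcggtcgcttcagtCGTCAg
Tap1: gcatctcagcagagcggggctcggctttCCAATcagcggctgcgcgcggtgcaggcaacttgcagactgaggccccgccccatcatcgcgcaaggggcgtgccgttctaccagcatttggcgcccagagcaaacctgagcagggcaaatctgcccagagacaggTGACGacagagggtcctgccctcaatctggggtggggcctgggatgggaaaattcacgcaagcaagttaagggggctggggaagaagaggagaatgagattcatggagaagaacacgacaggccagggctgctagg
Psmb8: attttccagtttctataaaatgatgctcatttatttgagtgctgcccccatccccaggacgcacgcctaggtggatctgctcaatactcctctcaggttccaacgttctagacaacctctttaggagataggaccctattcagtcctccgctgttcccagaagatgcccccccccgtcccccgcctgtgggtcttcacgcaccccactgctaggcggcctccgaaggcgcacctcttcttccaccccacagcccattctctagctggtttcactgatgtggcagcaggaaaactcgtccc

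The H2-K1 and H2-D1 windows held the same motifs in the same order. From the first base of GGGNNTTCC to that of TGACG was 70 bases in both, and from there to ATTGG 25 bases in both, followed 24 and 23 bases later by a CCAAT on the same strand. The NF-kB-like motif was found in 2 of the 8 members with a promoter, these heavy chains, and in 5.82% of all 32851 promoters. TGACG was found in 5 of 8 (B2m, H2-K1, Psmb9, Tap1 and H2-D1) and in 20.8% of all promoters. ATTGG was found in 6 of 8 (those 5 and Tapbp) and in 37.4% of all. The Tap1 and Psmb9 windows overlap, and their TGACG and ATTGG matches are the same bases read from opposite strands, so each of these counts holds 1 match 2 times. The interferon-stimulated response element core was found in B2m and Erap1 and in 3.44% of all promoters, and CACGTG in Erap1 and in 7.15%. None of these letters was found in the Psmb8 window. That window lies inside the GENCODE gene model of Psmb8 (34197721 to 34201454), so bases before the model's start were not searched. Erap1, which also rose, held matches as given above. A match is a description of letters and not a measured site. Only exact matches were counted. Windows without one, such as H2-K1 and H2-D1 for the interferon-stimulated response element, may hold variant forms, which were not searched.

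Of the members for transport and loading (Tap1, Tap2 and Tapbp), Tapbp, the bridge between transporter and heavy chain, had the lowest fold change. Tapbp (ENSMUSG00000024308, chromosome 17, 33915899 to 33929292) was at 339, 327 and 275 CPM in CD4, against a lowest of 82.5 CPM, a median of 88.2 CPM and a highest of 201 CPM in lymphoma. The highest value was lymphoma 53, and the other 5 lay between 82.5 and 102 CPM. The log2 fold change was -1.55 (SE 0.268) at an adjusted p (edgeR) of 0.000602, and it was -1.83 without lymphoma 53. Tap1 (ENSMUSG00000037321, chromosome 17, 34187553 to 34197225) was at 208, 247 and 264 CPM in CD4 and had a lowest of 91.0 CPM, a median of 119 CPM and a highest of 189 CPM in lymphoma. Lymphomas 70 and 72 were nearest to CD4, at 189 and 168 CPM, without reaching it. Tap1 fell by 0.86 on the log2 scale (SE 0.221), at an adjusted p (edgeR) of 0.00747. Its partner Tap2 (ENSMUSG00000024339, chromosome 17, 34203527 to 34216321) was at 128, 163 and 136 CPM in CD4. In lymphoma its lowest value was 68.2 CPM, its median 126 CPM and its highest 182 CPM. The Tap2 groups overlapped widely, and its log2 fold change of -0.19 (SE 0.244, adjusted p by edgeR 0.567) did not pass the threshold. Whether the Tap1 and Tap2 changes differ from each other was not tested.

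The proteasome subunits among the members moved in opposite directions. Psmb8 (ENSMUSG00000024338, chromosome 17, 34197721 to 34201454), the inducible beta5i subunit, was at 454, 407 and 407 CPM in CD4. Its lymphoma values had a lowest of 580 CPM, a median of 726 CPM and a highest of 816 CPM. All 6 lymphomas were above all CD4 libraries, and the log2 fold change was 0.77 (SE 0.147) at an adjusted p (edgeR) of 0.00118. Psmb9 (ENSMUSG00000096727, chromosome 17, 34181987 to 34187764, minus strand), the inducible beta1i subunit, was at 169, 134 and 138 CPM in CD4 and between 64.4 and 118 CPM in lymphoma, with a median of 99.3 CPM and lymphoma 53 the lowest. Psmb9 fell by 0.61 on the log2 scale (SE 0.192, adjusted p by edgeR 0.0215), with no overlap between the groups. Its call was lost without lymphoma 34 (edgeR adjusted p 0.0525), lymphoma 56 (0.0530), CD4 1 (0.112) or CD4 3 (0.0508), where the change was between -0.64 and -0.48.

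The calls of the activator and the trimming enzyme, like that of Psmb9, did not hold in every alternative. Nlrc5 (ENSMUSG00000074151) was at 83.4, 130 and 115 CPM in CD4 and had a lowest of 21 CPM, a median of 51.0 CPM and a highest of 84.8 CPM in lymphoma. Lymphoma 53 was the lowest, and lymphoma 70 alone overlapped with CD4, through CD4 1. Nlrc5 fell by 1.05 on the log2 scale (SE 0.326, adjusted p by edgeR 0.0200), and its call was lost without CD4 2 (edgeR adjusted p 0.0936) or CD4 3 (0.0673). Erap1 (ENSMUSG00000021583) was at 35.8, 26.4 and 34.2 CPM in CD4 and had a lowest of 33.1 CPM, a median of 48.2 CPM and a highest of 55.9 CPM in lymphoma. The groups overlapped through lymphoma 72, and Erap1 rose by 0.55 (SE 0.204, adjusted p by edgeR 0.0441). That call was lost in 13 of 17 alternatives, with adjusted p from 0.0512 to 0.170, among them each other scaling of the libraries, DESeq2 and limma voom. The Erap1 count is also uncertain because its gene model overlaps the last 834 bases of the opposite-strand gene Cast on chromosome 13, and all 451 windows of 50 bases in the last 500 bases of its longest coding transcript also occur in Cast transcripts, when both strands are searched. The strand setting of the counting is not given in the sources used here.

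Reads of near-identical copies are a concern for class I heavy chains, so the same measure was taken for all members. Of the 451 windows at the 3′ end of H2-K1, 2 also occurred in another gene, H2-D1. For H2-D1 the number was 43 (9.53%), and the main genes sharing them were Gm49784, Fam173b, Terf1 and AC132307.5, none of them a listed heavy chain. For B2m, Tap1, Tap2, Tapbp, Psmb8, Psmb9 and Nlrc5 it was 0. Reads aligned to more than 1 place, which are in no gene's count, made up 16.1 to 18.6% of all reads in lymphoma and 11.6 to 14.0% in CD4.

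Ratios of 2 genes within a library do not depend on scaling, and 6 were tested by a two-sided exact permutation over all 84 assignments of libraries. The ratio of H2-D1 to B2m counts was 0.466, 0.349 and 0.355 in CD4 and 0.187 to 0.274 in lymphoma, without overlap. Its log2 difference was -0.73, with an exact permutation p of 0.0238, the smallest possible here, and 0.0714 after Benjamini-Hochberg adjustment over the 6 ratios. For H2-K1 over B2m the values were 0.701, 0.624 and 0.789 in CD4. They were 0.208 to 0.290 in 5 lymphomas, but lymphoma 53 stood at 0.670, inside the CD4 range. The log2 difference was -1.20 (exact permutation p 0.0476, adjusted 0.0714), and -1.43 without lymphoma 53.

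Each inducible proteasome subunit was also set against the constitutive subunit of the same active site. Psmb9 over Psmb6 was 1.92, 1.69 and 1.73 in CD4 and 0.232 to 0.673 in lymphoma, with no overlap and a log2 difference of -1.86 (exact permutation p 0.0238, adjusted 0.0714). Psmb8 over Psmb5 was 19.7, 41.3 and 61.7 in CD4 and 12.9 to 26.4 in lymphoma, with lymphoma 53 alone above CD4 1. Its log2 difference was -1.25 (exact permutation p 0.0476, adjusted 0.0714). The Psmb8 level itself was higher in lymphoma, as given above. Psmb10 over Psmb7 had a log2 difference of -1.11 (exact permutation p 0.0714, adjusted 0.0857), with lymphoma 53 at 3.67 inside the CD4 range of 3.26 to 3.86 and the other lymphomas at 0.902 to 2.03. None of these ratios passed 0.05 after adjustment over all 6 libraries of lymphoma. Without lymphoma 53 the 5 ratios other than Tap1 over Psmb9 did not overlap between the groups and each had an adjusted exact permutation p of 0.0429. Lymphoma 53 was singled out for this after its values were seen, and any ratio without overlap then takes the smallest p of 5 against 3 libraries (exact permutation p 0.0357), so these p-values add no support. Tap1 over Psmb9, a pair that shares a promoter region, was 1.23 to 1.91 in CD4 and 0.769 to 1.72 in lymphoma (log2 difference -0.27, exact permutation p 0.333, adjusted 0.333).

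**Figure D3:**
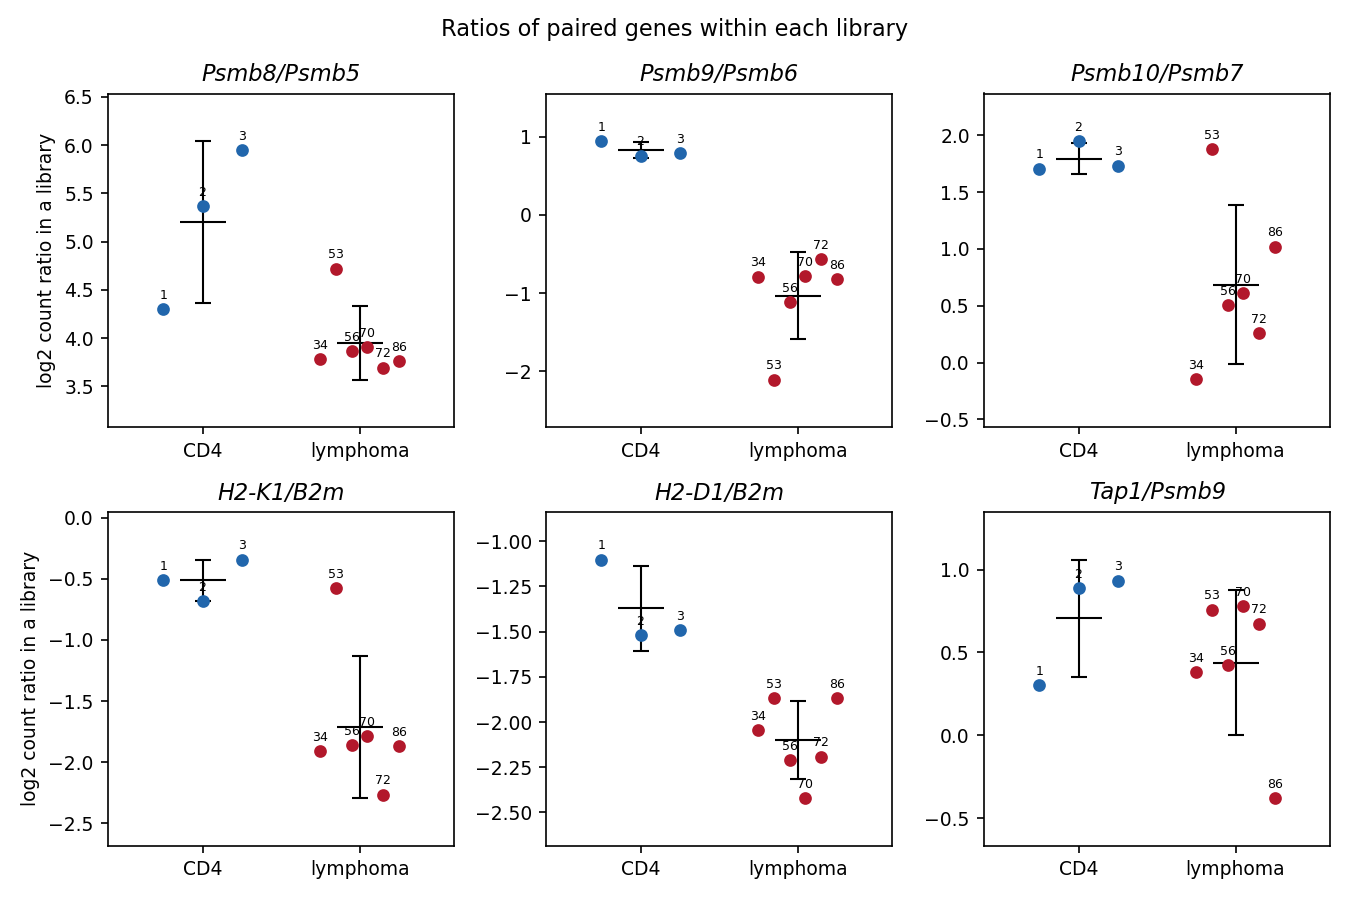
Log2 ratio of the counts of 2 genes within each library, 1 panel per pair, with CD4 in blue, lymphoma in red, library numbers beside the points and the mean with its SD as a bar. For H2-K1/B2m and Psmb10/Psmb7 the point of lymphoma 53 lies among the CD4 libraries and the other 5 lymphomas lie below them.

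The rest of the pathway was taken from 7 lists. Of 18 genes listed as other class I and class I-like heavy chains, 14 were tested, and 9 were lower and 0 higher in lymphoma. Their median log2 fold change was -1.58, and the groups did not overlap at 10. Over all tested genes 21.9% were lower, 24.7% were higher and 44.9% did not overlap. GENCODE M21 types H2-K2 as a pseudogene and H2-T10 and H2-Bl as polymorphic pseudogenes. H2-K2 and H2-T10 are among the 9, and the shared 3′ windows of H2-K2 were not measured. H2-M2 and H2-T23 had the lowest fold changes, and both are scarce. H2-M2 was at 18.9 to 22.9 CPM in CD4 and 0.800 to 3.61 CPM in lymphoma (log2 fold change -3.37, SE 0.464, adjusted p by edgeR 0.000118). H2-T23, which encodes the Qa-1 heavy chain, had 0 to 8 counts per library in lymphoma and 19 to 37 in CD4 (log2 fold change -2.95, SE 0.821, adjusted p by edgeR 0.0114). The counts of H2-T10 and H2-T22 are uncertain, since 59.4 and 59.2% of their 3′ windows are shared between the 2 genes, as are those of H2-Q6 with 49.4%, H2-T23 with 41.2%, H2-Q4 with 33.9%, H2-Q1 with 18.8% and H2-Q2 with 13.1% of windows shared with other genes.

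Lymphoma 53 differed from the other lymphomas in which heavy chains of the H2-Q group were counted. H2-Q1 had 187 counts in lymphoma 53 and 0 in each of the other 8 libraries, and H2-Q2 was at 171 CPM there and at 0.122 to 2.31 CPM in the other lymphomas. In the opposite sense, H2-Q6 was at 0.548 CPM in lymphoma 53 and at 24 to 43.0 CPM in the others, and H2-Q7 at 23.8 against 127 to 330 CPM. H2-Q10 was at 0.822 CPM there and at 4.95 to 38.0 CPM in the others. These 5 genes lie within chromosome 17, 35320405 to 35474563, and were singled out after their values were seen. The edgeR test of lymphoma against CD4 called none of the 4 tested among them, H2-Q2, H2-Q6, H2-Q7 and H2-Q10 (adjusted p 0.228, 0.176, 0.287 and 0.311). The difference of lymphoma 53 from the other lymphomas was not tested. Of the members, lymphoma 53 was above all other lymphomas at H2-K1 and Tapbp, below them at B2m, Tap2, Psmb9 and Nlrc5, and within their range at the other 4. Of the H2-Q genes, H2-Q1, H2-Q2 and H2-Q6 have the shared 3′ windows given above. Class I genes vary between mouse strains, and whether lymphoma 53 carries the C57BL/6J alleles named in its label was not tested. Its H2-K1, H2-D1 and H2-Q counts and its ratio of H2-K1 to B2m rest on that label. So do its counts of Tapbp, Tap1, Tap2, Psmb8 and Psmb9, which also lie in the MHC, and the ratios that use them.

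**Figure D4:**
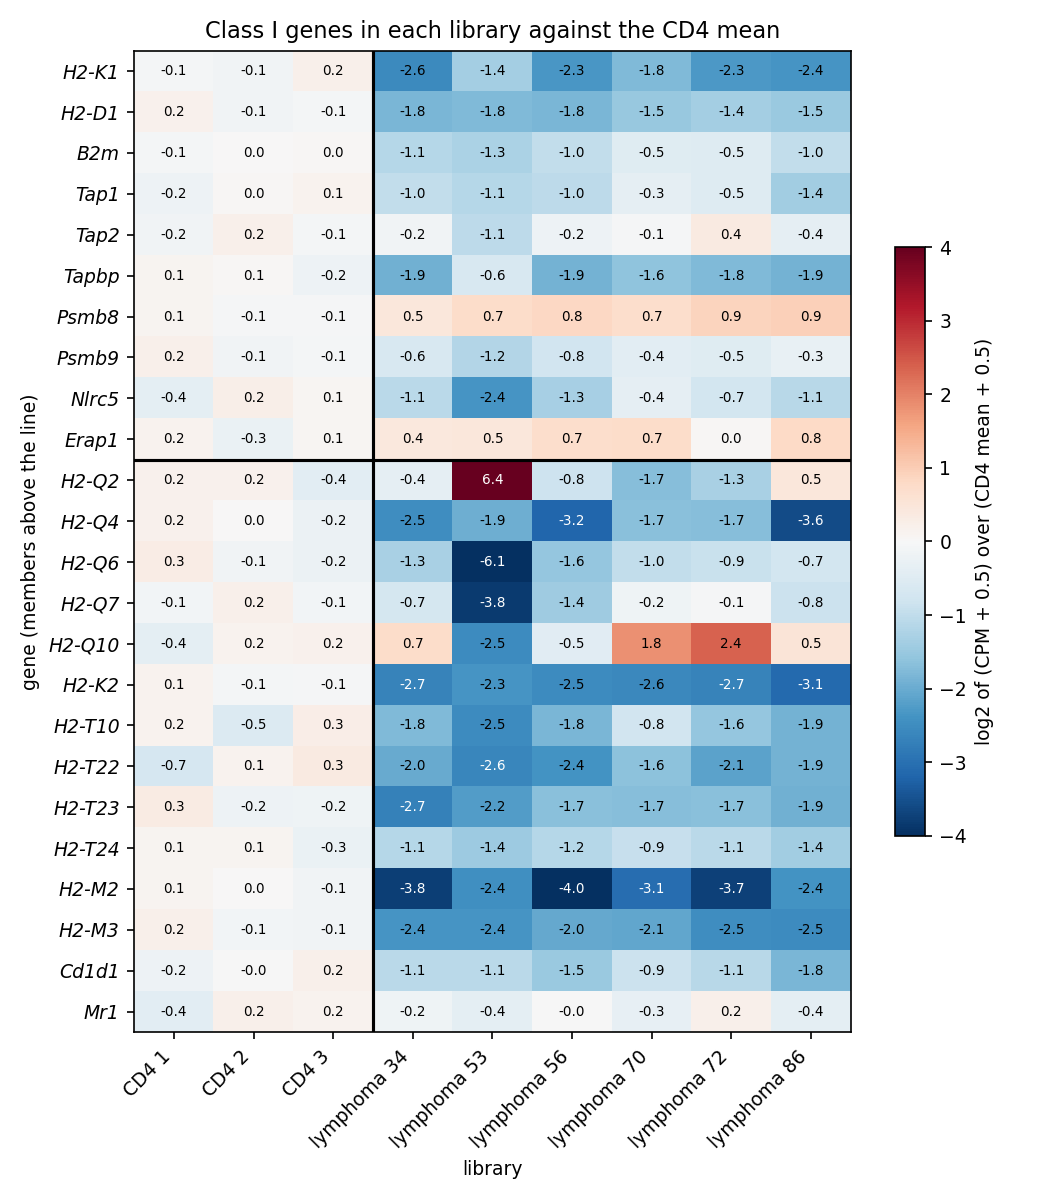
Log2 of CPM plus 0.5 in each library over the CD4 mean plus 0.5. Rows are the 10 members (above the line) and the 14 tested genes of the list of other heavy chains. Each cell holds its value, and colours are limited at 4 in both directions. The column of lymphoma 53 shows H2-Q2 at 6.4 and H2-Q6 at -6.1, while H2-D1 lies between -1.8 and -1.4 in all 6 lymphomas.

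Loading and folding helpers of the endoplasmic reticulum were mixed. Of 8 tested genes, 4 were higher and 1 lower in lymphoma, against 24.7 and 21.9% of all tested genes, with a median log2 fold change of 0.29. Canx (calnexin), a chaperone of new heavy chains, was at 407 to 582 CPM in lymphoma and 114 to 182 CPM in CD4 (log2 fold change 1.67, SE 0.193, adjusted p by edgeR 3.26e-05). P4hb and Pdia3, both protein disulfide isomerases, rose by 1.47 and 0.72 on the log2 scale (edgeR adjusted p 0.000409 and 0.00270). Calr (calreticulin) was called at 0.44 (edgeR adjusted p 0.0460), and this was lost in 10 alternatives, with adjusted p up to 0.161. The one gene that fell was Tapbpl, the relative of tapasin that edits peptides, at 57.1 to 73.2 CPM in CD4 and 17.8 to 28.8 CPM in lymphoma (log2 fold change -1.62, SE 0.189, adjusted p by edgeR 3.61e-05). Hspa5, Uggt1 and Erp29 did not pass the threshold (edgeR adjusted p 0.352, 0.476 and 0.777).

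The constitutive catalytic subunits rose, 3 of 3, against 24.7% of all tested genes. Psmb5 rose by 1.87 on the log2 scale (SE 0.399), Psmb6 by 1.26 (SE 0.20) and Psmb7 by 1.41 (SE 0.208), at adjusted p values (edgeR) of 0.00250, 0.000333 and 0.000190 and no overlap between the groups. Without CD4 1, the CD4 library with the most Psmb5, its change was 2.58. Among 8 listed genes for the other inducible subunits, activators and assembly factor, 7 were tested, 2 were higher and 2 lower, against 24.7 and 21.9% of all tested genes. Psme3, which encodes the nuclear PA28 gamma activator, rose by 1.55 (SE 0.177, adjusted p by edgeR 2.95e-05) and Pomp, an assembly factor, by 1.01 (SE 0.255, adjusted p by edgeR 0.00668). Psme2, the PA28 beta activator, fell from 128 to 213 CPM in CD4 to 45.2 to 73.8 CPM in lymphoma (log2 fold change -1.41, SE 0.207, adjusted p by edgeR 0.000191). Its copy Psme2b also fell, but reads of the pair may not be separable. Psme1, the PA28 alpha partner, was at 183 to 359 CPM in lymphoma and 238 to 356 CPM in CD4 (edgeR adjusted p 0.451), and Psmb10 at 73.1 to 308 CPM and 93.0 to 116 CPM (edgeR adjusted p 0.371). Psme4 did not pass either (edgeR adjusted p 0.592).

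Cytosolic and other peptidases were mixed, with 4 of 8 higher and 2 lower, against 24.7 and 21.9% of all tested genes, and a median log2 fold change of 0.74. Thop1 (thimet oligopeptidase), which cuts peptides in the cytosol, was at 12.2 to 24.1 CPM in lymphoma and 1.56 to 3.05 CPM in CD4 (log2 fold change 2.82, SE 0.351, adjusted p by edgeR 5.61e-05). Lap3 (leucine aminopeptidase), Blmh (bleomycin hydrolase) and Ide (insulin-degrading enzyme) rose by 1.98, 1.66 and 1.64 on the log2 scale (edgeR adjusted p 0.000207, 0.000275 and 8.18e-05). Lnpep, an aminopeptidase of endosomes used in cross-presentation, fell by 0.93 (edgeR adjusted p 0.0326) and Nrd1 by 0.69 (edgeR adjusted p 0.0218). The Lnpep call was lost without lymphoma 56, 70 or 72, without CD4 1, 2 or 3 and with lymphomas 34, 70 and 72 averaged (adjusted p up to 0.113). The Nrd1 call was lost without lymphoma 34, 56 or 70 and without CD4 1 or 2 (adjusted p up to 0.141). Npepps and Tpp2 did not pass the threshold (edgeR adjusted p 0.451 and 0.330).

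Genes that carry interferon and NF-kB signals to class I were mostly lower. Of 18 tested genes, 15 were lower and 0 higher in lymphoma, with a median log2 fold change of -1.33, against 21.9% called as lower over all genes. Irf1, which binds class I promoters, was at 316 to 335 CPM in CD4 and 49.3 to 74.3 CPM in lymphoma (log2 fold change -2.38, SE 0.153, adjusted p by edgeR 4.78e-07). Irf2, a relative of Irf1, was at 340 to 352 CPM and 74.6 to 99 CPM in the same order (log2 fold change -1.94, SE 0.133, adjusted p by edgeR 7.33e-07). Irf7, itself induced by interferon, had the largest fall of the list at -3.17 (SE 0.401, adjusted p by edgeR 6.38e-05). Ifngr1, Ifnar2 and Tyk2 did not pass the threshold (edgeR adjusted p 0.0886, 0.501 and 0.485). Many of these genes are also expressed by B cells and dendritic cells, whose markers were higher in CD4 as given above. The part of these cells in the values of this list was not tested.

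The listed class I promoter factors showed no common direction. Of 9 tested, 2 were higher and 2 lower, so 4 of 9 were called, near the 46.6% called over all tested genes. The 2 lower genes were Creb1 and Ciita, and Ciita is not a partner of Nlrc5. Rfxap, an RFX subunit, rose by 0.93 (SE 0.274, adjusted p by edgeR 0.0155), and Nfyb, an NF-Y subunit, by 0.44 (SE 0.153, adjusted p by edgeR 0.0346), a call lost in 10 alternatives, with adjusted p up to 0.0973. Creb1 fell by 0.62 (SE 0.143, adjusted p by edgeR 0.00404). Ciita, the relative of Nlrc5 that activates MHC class II and is typical of B cells and dendritic cells, had 0 to 39 counts per lymphoma and 268 to 294 counts per CD4 library (log2 fold change -5.05, SE 0.876, adjusted p by edgeR 0.000858). Without lymphoma 34, which held the 39 counts, its change was -5.73.

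**Figure D5:**
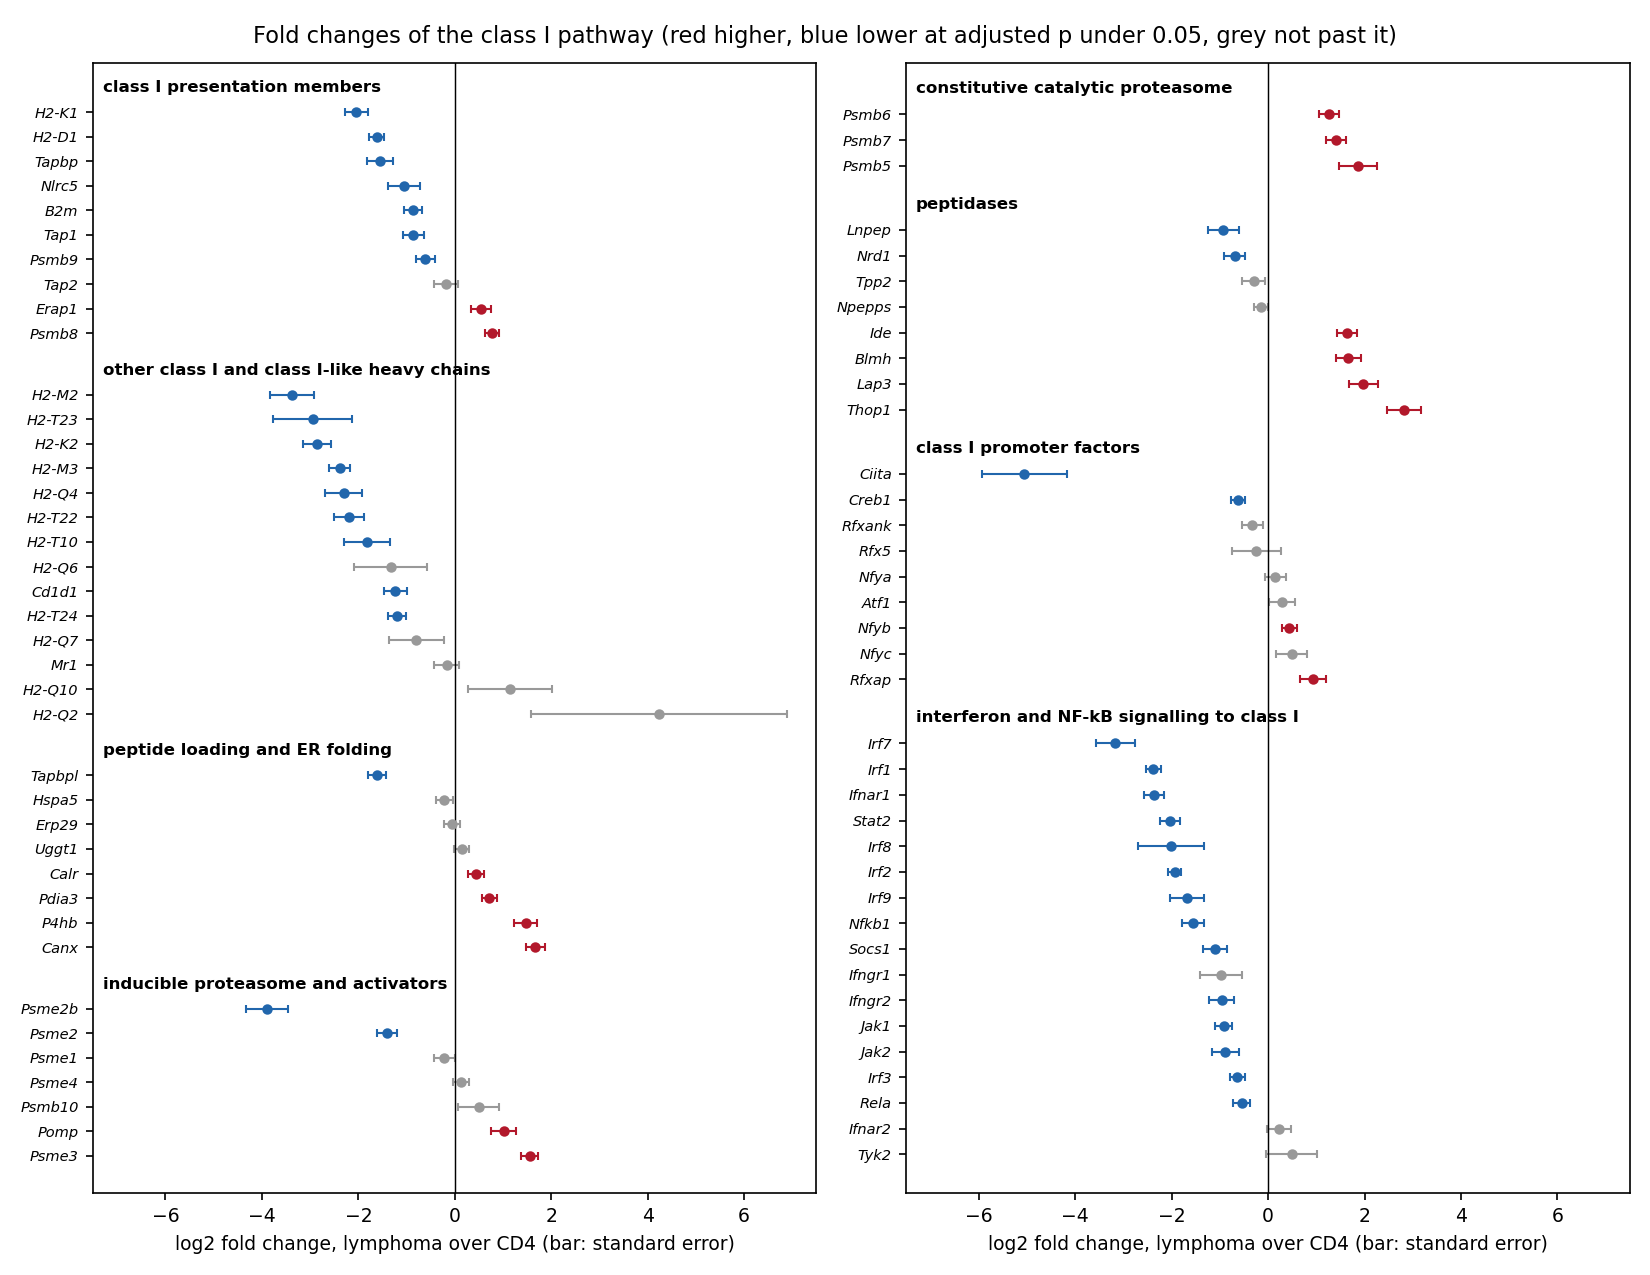
Log2 fold change, lymphoma over CD4, with its standard error for the members and the tested genes of the 7 pathway lists, with 1 gene left out. Red marks genes that were higher and blue those that were lower at an edgeR adjusted p under 0.05, and grey those not past it. The interferon and NF-kB list holds 0 red points and the constitutive catalytic proteasome list 3 red points.

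Next, 3 pairs of genes are given across the 6 lymphomas in log2 CPM, of 4 computed. Nlrc5 and B2m had a Pearson correlation of 0.844 (exact permutation p 0.0194, adjusted over the 4 pairs 0.0778) and a Spearman correlation of 0.771 (exact permutation p 0.103, adjusted 0.411). Without lymphomas 53 and 70, the farthest from the median of Nlrc5, r was 0.749 over 4 libraries (exact permutation p 0.333). Nlrc5 and H2-K1 gave an r of -0.459 (exact permutation p 0.375, adjusted 0.708) and a rho of -0.0857 (exact permutation p 0.919, adjusted 1.0), and r was 0.195 without lymphomas 53 and 70 and 0.820 without lymphoma 53 alone (5 libraries, exact permutation p 0.0833), so its sign rests on lymphoma 53. Tap1 and Psmb9 gave an r of 0.270 (exact permutation p 0.615, adjusted 0.708) and a rho of 0.143 (exact permutation p 0.803, adjusted 1.0), with -0.498 without lymphomas 70 and 72. None of the 3 passed 0.05 after adjustment.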

How the data were processed

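The deposited table holds raw read counts per Ensembl gene, with a symbol beside each ID, per the file headers, for 6 lymphoma and 3 CD4 libraries. HISAT2, SAMtools, HTSeq and FastQC and the builds mm10 and GRCm38 are named in the submitters' processing notes. Versions, annotation and strand setting are not given in the sources used here. The 5 summary rows of reads in no gene entered neither library sizes nor tests, and the number of columns without a sample was 0. These summary rows held 65.0 to 72.2% of reads in CD4 and 50.9 to 61.3% in lymphoma, without overlap. The part of this difference in the results was not tested. The test used edgeR 4.0.16 (R 4.3.3) on the counts, after filterByExpr by group (minimum count 10) and TMM scaling, with glmQLFit (robust) and glmQLFTest, all 9 libraries and no covariate. P-values were adjusted by Benjamini-Hochberg across 15401 genes, with 0.05 as threshold. The SE is the absolute log2 fold change over the square root of F. CPM divides counts by the TMM-scaled library size, per 1000000. A prior count of 2 was added for log2 CPM. Count ratios used a pseudocount of 1 count. Exact tests used scipy 1.17.1. The fit was tested on simulated data, where the recovery asked of it was lowered after the simulated result was seen. RLE, upper quartile and no scaling, DESeq2 1.42.0, limma 3.58.1 voom, other filters, left-out libraries and an average of lymphomas 34, 70 and 72 were tried.

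The members and lists were chosen with earlier results of these data known. Named are all members, the genes of the ratios, Irf1, Irf2, Ciita, and in each list the 2 largest rises and 2 largest falls among called genes and every tested gene of lists with at most 8. A further gene of that rule, and its correlation, is not reported here, though counts and adjustments include it. The H2-Q genes, H2-K2, H2-Bl, H2-T10, H2-T22, Ifngr1, Ifnar2, Tyk2, Cd4, Cd8a, Cd8b1 and the natural killer cell markers are named outside that rule, after their values were seen. Gene positions are from GENCODE M21, which matched 45143 of 46078 IDs. A count of 0 allows up to 3 counts, or 0.190 to 0.370 counts per 1000000, which covers counting error only.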

Additional observations from a re-analysis of the deposited data

Results flagged for a closer look

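Over the 6 lymphomas, 52 values (named genes in CPM and 6 log2 ratios) were examined for a library standing apart, that is with a gap to its nearest neighbour above 0.625 of the range (Dixon's limit at 95%). This held for 12 values, and 8 of the 12 concern lymphoma 53. For normally distributed values chance gives about 1 in 20, or 2.6, but the distribution was not tested. Values of the same library are also not independent, so 12 against 2.6 is not a test. Only 1 of the 12 is a member: Tapbp was at 201 CPM in lymphoma 53 and at most 102 CPM in the other lymphomas. Also highest in lymphoma 53 were Psme1 (359 CPM), Psme2b (3.01 CPM), Erp29 (156 CPM), the log2 ratio of Psmb8 to Psmb5 (4.72) and that of H2-K1 to B2m (-0.58). Lowest there were Tpp2 (88.9 CPM) and the log2 ratio of Psmb9 to Psmb6 (-2.11). The other 4 were Irf2, lowest in lymphoma 56 (74.6 CPM), Irf7, highest in lymphoma 70 (9.55 CPM), Nrd1, highest in lymphoma 72 (192 CPM), and the log2 ratio of Tap1 to Psmb9, lowest in lymphoma 86 (-0.38).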

How the results depend on the processing

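H2-K1, H2-D1, B2m, Tap1, Tapbp and Psmb8 kept direction and call in all 17 alternative fits, and Tap2 stayed uncalled in all 17. The number of members called as higher was 1 instead of 2 (Psmb8 alone, with Erap1 not past the threshold) with RLE, upper quartile or library size scaling, DESeq2, limma voom, no filter, at least 10 counts in every library and at an adjusted p under 0.01. It was 1 to 2 when 1 library was left out, and the members called as lower were 5 to 7. The number of all genes called was 4915 to 8137 over the alternatives. The median over all tested genes was 0.04 and at most 0.20 (no filter), where that of the members was -0.83. No paired analysis was possible because the replicate numbers of the groups do not overlap. Leaving out 1 library gave log2 ratio differences from -1.70 to -0.88 (Psmb8/Psmb5), -1.95 to -1.65 (Psmb9/Psmb6), -1.35 to -0.94 (Psmb10/Psmb7), -1.43 to -1.09 (H2-K1/B2m), -0.80 to -0.59 (H2-D1/B2m) and -0.47 to -0.10 (Tap1/Psmb9). With 1 CD4 library left out the smallest exact p is 0.0714, so these fits say nothing about the test. Without lymphoma 53 the first 5 ratios passed 0.05, at -1.40, -1.65, -1.35, -1.43 and -0.78, at the smallest p that 5 against 3 libraries allow. Over 4 lymphomas r was 0.195 for Nlrc5 and H2-K1 and -0.498 for Tap1 and Psmb9, and leaving out lymphoma 53 alone, chosen after seeing the data, gave 0.820 and 0.0463. The cause of these shifts was not tested. Genes of a few counts per library, such as H2-T23 and Ciita in lymphoma, are limited by depth.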
